A study of Mus musculus with 20 samples.

Results

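Colonic organoids (colonoids), epithelial structures grown in a gel from crypts of the mouse colon, were compared between 3 and 5 days after their last passage. All libraries labelled day 3 or day 5 were taken, 8 of the 20 libraries in the series. They came from 4 cultures, 2 from wildtype (WT) mice and 2 from Tnfr2-/- mice, which lack the TNF receptor TNFR2 throughout the body, with 1 library per culture at each day. Replicates are mice per the series design, and libraries that carry the same mouse number within a genotype were taken as 1 culture. Crypts had been embedded in Matrigel under Intesticult medium, passaged repeatedly and put through a nylon mesh before the final seeding, so all groups share that handling, and the day is the only labelled difference between the 2 libraries of a culture. Days 1, 2 and 7 of the same cultures served as the frame of the course. The study names its wildtype mice as C57BL/6, age and sex are not given in the labels, the knockout was not restricted to the epithelium, and 2 mice per genotype limit what can be said of genotype.

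The colonic epithelium is renewed from stem cells at the crypt base, whose daughters divide a few more times and then mature into absorptive colonocytes, which take up water, salts and short-chain fatty acids, or into secretory cells such as goblet cells, which make the mucus layer, and hormone-producing enteroendocrine cells. Passage breaks colonoids into fragments, and the fragments pass through a growth phase with features of wound repair before mature cell types appear. TNFR2, encoded by Tnfrsf1b, is the TNF receptor without a death domain and signals through TRAF adaptors to NF-kappaB. The step from day 3 to day 5 addresses how far differentiation, proliferation and metabolism shift between the early and the late part of this course, and whether WT and Tnfr2-/- cultures make the same shift.

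Values are TPM, a length-corrected measure of transcript abundance, which the authors rescaled with 1 size factor for each library. They were summed per gene and are called normalised expression here. The 8 libraries summed to between 979034 and 1110230, had between 13020 and 13345 genes with a value of at least 1, and gave between 4.58% and 6.65% of their sum to genes of the mitochondrial genome. Tnfrsf1b, the targeted gene, was at 11.1 and 14.5 on day 3 and at 13.9 and 13.6 on day 5 in WT, and at 3.70 and 5.52 and then 8.08 and 7.59 in Tnfr2-/- cultures. It was thus below both WT values in each Tnfr2-/- library of these days but not absent, and higher on day 5 than on day 3 in both Tnfr2-/- cultures. On day 7 it reached 11.5 in Tnfr2-/- mouse 2, against 14.2 in WT mouse 2. The 9 markers of epithelial identity, among them Epcam, Cdh1 and Krt19, summed to between 15711 and 20039. Of the markers of other cells, the 14 fibroblast genes summed to between 2030 and 7488, the 12 haematopoietic genes to between 26.6 and 94.8 with Cd79a, Adgre1 and Tyrobp at 0, the 5 endothelial genes to at most 3.21 with Cdh5 at 0, and the 6 neuronal and glial genes to at most 1.72. WT mouse 1 stood apart from the other cultures on day 3, with Muc2 at 37.8 against at most 1.79 and Agr2 at 243 against at most 38.5, and the counts of each list with a call are also given without it. In such bulk libraries, fewer cells of a type and less RNA per cell cannot be told apart.

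Between day 3 and day 5, several genes of goblet cells, absorptive colonocytes and drug handling rose, while genes of mitosis and a set of keratins fell. Muc2, the main gel-forming mucin of the colon, went from a mean of 10.1 to 114 over the 4 cultures and from 0.904 to 20.7 without WT mouse 1. Lypd8, a colonocyte protein that keeps flagellated bacteria off the epithelium, went from 159 to 1217 over the 4 cultures and from 70.1 to 806.5 without WT mouse 1. Ube2c and Cdk1, which drive mitosis, fell from 113 to 57.1 and from 119 to 68.0. Of 13480 genes tested with limma (log2 of the value plus 1, each culture compared with itself, Benjamini-Hochberg adjustment), 240 were called at an adjusted p under 0.05. There were 191 that rose (1.42% of the genes tested) and 49 that fell (0.364%), and 2583 had an unadjusted p under 0.05 (19.2%). A higher mean on day 5 was seen for 7014 genes (52%). A rise in every one of the 4 cultures was seen for 2107 genes (15.6%) and a fall in every one for 1659 (12.3%). These shares of all genes are the background for the list counts that follow. The calls rest on 4 cultures: 31 genes were called without WT mouse 1, 0 without WT mouse 2, 0 without Tnfr2-/- mouse 1 and 8 without Tnfr2-/- mouse 2, and 39 when libraries were not paired by mouse.

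**Figure D1:**
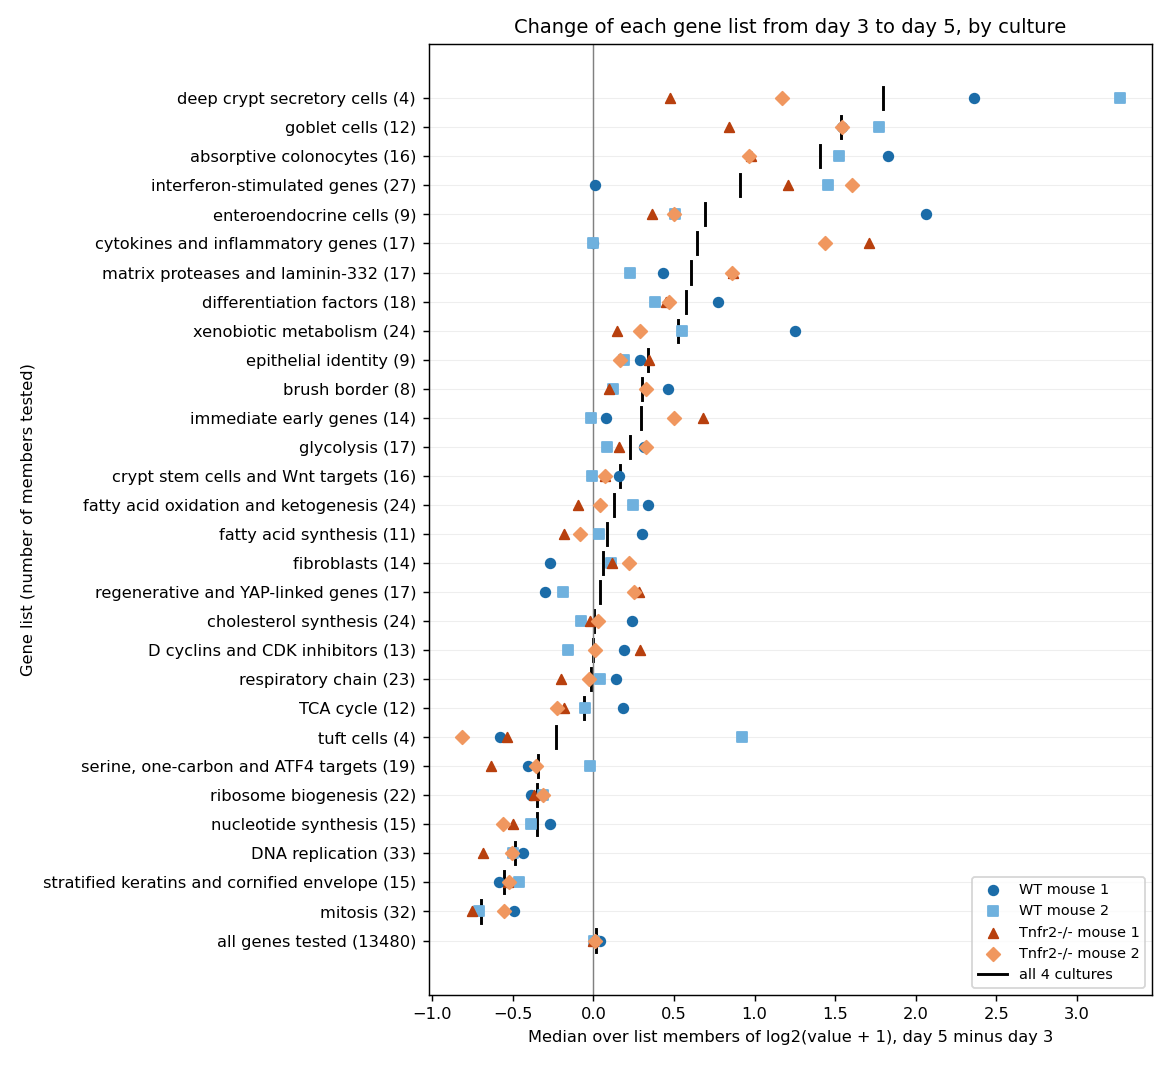
Median change from day 3 to day 5 for each gene list (number of members tested in brackets), as the difference in log2(value + 1) on the horizontal axis. Points are the 4 cultures and black bars the median over members of the change averaged over cultures. Goblet cells stand at 1.54, absorptive colonocytes at 1.41, mitosis at -0.70 and all 13480 genes at 0.02.

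The 10 called genes with the largest rise included secreted and surface proteins of the colonic epithelium. Muc2 (chromosome 7, 141690340 to 141754693, GRCm38) was at 37.8, 0, 1.79 and 0.924 on day 3 and at 396, 23.9, 13.7 and 24.4 on day 5 in WT mouse 1, WT mouse 2, Tnfr2-/- mouse 1 and Tnfr2-/- mouse 2, the order used for all values that follow. The Muc2 value sums 2 gene identifiers of that symbol, and the position is that of ENSMUSG00000025515. Every culture was higher on day 5, WT mouse 1 stood above the others on both days, and the log2 change was 3.53 (SE 0.35, adjusted p 0.0190). Lypd8 (chromosome 11, 58379043 to 58390728) went from 427, 33.1, 86.9 and 90.4 to 2447, 842, 776 and 802, so that the lowest day 5 library lay above the highest day 3 library (log2 change 3.36, SE 0.31, adjusted p 0.0190). Sval1, a gene of deep secretory cells, rose by 3.50 on the log2 scale from 37.2, 0, 0 and 2.33 to 187, 25.6, 19.7 and 18.9. Spink1, a secreted trypsin inhibitor, was at 22.3 in WT mouse 1 and listed at 0 in the other cultures on day 3, against 155, 6.83, 6.90 and 11.003 on day 5 (log2 change 3.07, adjusted p 0.0150). Also in this group were 2610528A11Rik (log2 change 3.17), which encodes the GPR15 ligand, the secreted factor Fam3b (2.93), the whey acidic protein Wfdc18 (2.88) and Clca4b (2.83), a member of the calcium-activated chloride channel regulators. Clca4b was between 0.421 and 3.11 on day 3 and between 14.5 and 22.7 on day 5. Gm9803 and Rps15a-ps6 completed the 10. Rps15a-ps6 is a processed pseudogene, Gm9803 is annotated as protein coding, and both were listed at 0 in every day 3 library, so no fold is given, and between 6.14 and 13.1 on day 5. Pseudoalignment can divide reads among near-identical copies, which leaves the values of such genes, and of close paralogs such as the Clca, Oas and Krt families, uncertain.

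All 12 goblet cell markers tested were higher on day 5 in the mean over cultures, with a median log2 change of 1.54 against 0.02 for all genes. Muc2, Agr2 and Fcgbp passed the test. Agr2, an endoplasmic reticulum protein needed to fold mucin, rose in each culture from 243, 31.0, 38.5 and 29.5 to 492, 82.4, 103 and 110 (log2 change 1.42, SE 0.15, adjusted p 0.0190). Fcgbp, which cross-links the mucus network, went from 19.6, 2.75, 4.69 and 2.10 to 188, 21.8, 9.09 and 28.3 (2.47, SE 0.41, adjusted p 0.0466). The trefoil factor Tff3 was at 93.9, 0, 10.9 and 3.30 and then at 632, 60.4, 29.7 and 73.4, a log2 change of 3.54 that was not called (adjusted p 0.0643). Spdef, a transcription factor of goblet cell maturation, stayed low at 11.7, 2.50, 0.783 and 1.498 on day 5, with an adjusted p of 0.284. In every goblet gene named here WT mouse 1 held the highest value on both days. Without WT mouse 1, 10 of the 11 goblet genes then tested were higher on day 5, and 0 of them were among the 31 genes then called by limma.

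Of the other secretory lineages, all 4 deep secretory genes tested were higher on day 5 (median log2 change 1.80), 3 of them in each culture. Sval1 was called, and Reg4, a lectin of these cells, went from 52.4, 0, 4.56 and 2.36 to 159, 22.2, 4.99 and 8.96 without a call (adjusted p 0.184). Of 9 enteroendocrine genes tested, 8 were higher on day 5, and Pyy, a hormone of colonic L cells, was called, from 21.8, 0, 12.1 and 2.74 to 162, 7.13, 34.8 and 16.4 (log2 change 2.38, SE 0.28, adjusted p 0.0230). Chromogranin genes Chga and Chgb had adjusted p-values of 0.275 and 0.109, and Neurog3, the factor that starts the enteroendocrine programme, was listed at 0 in every library but those of WT mouse 1. In the fit without WT mouse 1, the 2 deep secretory and the 5 enteroendocrine genes then tested were all higher on day 5, and 0 of them were among the 31 genes then called. Tuft cell markers showed no call. Of 13 markers, 4 were tested and 6 were at 0 in all 8 libraries. Their summed level was between 21.0 and 26.9 on day 3 and between 15.1 and 30.4 on day 5.

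Absorptive colonocyte genes were mostly higher on day 5 too. Of 16 tested, 15 were higher on day 5 with a median log2 change of 1.41 (0.91 without WT mouse 2), and Lypd8, Cdhr5, Muc3 and Atp12a were called. Cdhr5, a protocadherin that links the tips of microvilli, went from 58.1, 14.6, 22.4 and 23.8 to 216, 54.3, 56.8 and 53.3 (log2 change 1.53, SE 0.16, adjusted p 0.0190), and in the 3 cultures other than WT mouse 1 every day 5 value lay above every day 3 value. Muc3, a membrane mucin of the brush border, rose by 2.09, and Atp12a, the colonic proton-potassium pump, by 1.46 on the log2 scale. The classical surface colonocyte genes did not follow as a block. Car1, a carbonic anhydrase, was at 279, 3.998, 15.9 and 15.1 on day 3 and at 789, 130, 20.4 and 11.01 on day 5 (adjusted p 0.344). Car4, Aqp8 and Slc26a3, which encode a membrane carbonic anhydrase, a water channel and the chloride-bicarbonate exchanger, were at or under 1.18 on day 5 in all cultures but WT mouse 1. Their WT mouse 1 values were 8.88, 12.0 and 7.85. Of 8 brush border genes tested 7 were higher, and Ush1c, the harmonin scaffold, was called (22.5, 3.43, 6.80 and 7.36 against 51.5, 13.9, 17.1 and 17.2). Without WT mouse 1, 5 of the 8 brush border genes were higher and 0 of them were called. Without it, which also took 6 low genes out of the list, all 10 absorptive genes then tested were higher on day 5 and 1 was called.

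**Figure D2:**
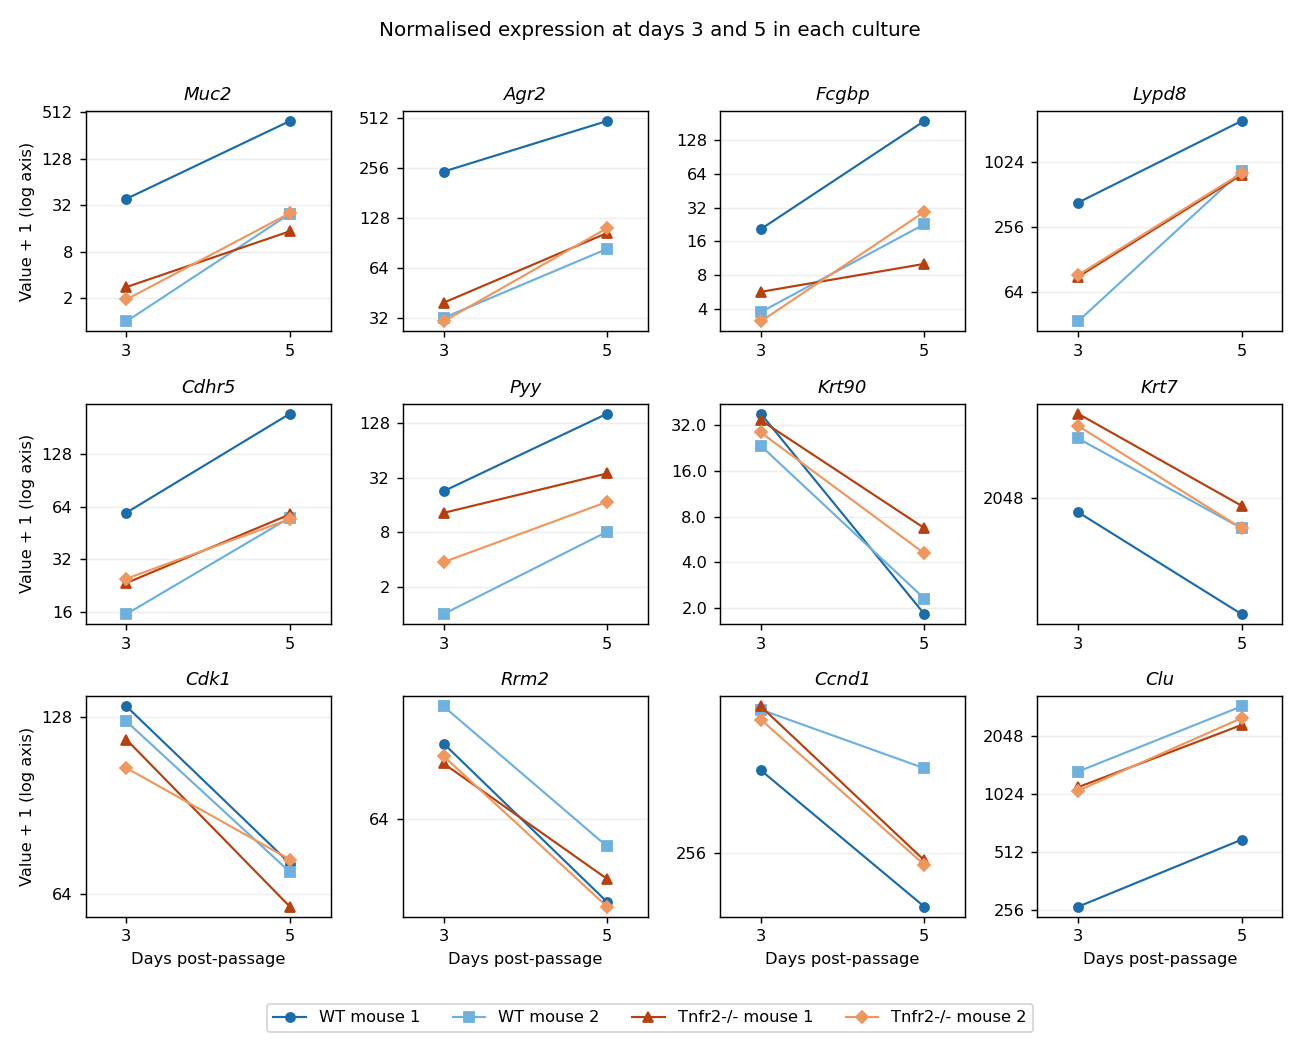
Normalised expression plus 1 on a log axis (base 2) at 3 and 5 days post-passage for 12 genes, with 1 line per culture. Muc2, Agr2, Fcgbp, Lypd8, Cdhr5 and Pyy rose in all 4 cultures with WT mouse 1 the highest, whereas Krt90, Krt7, Cdk1, Rrm2 and Ccnd1 fell in all 4, and Clu rose with WT mouse 1 the lowest.

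Transcription factors of intestinal differentiation mostly had higher means on day 5, and most were not called. Of 18 tested, 17 were higher on day 5 (median log2 change 0.58), and Cdx1, Klf5 and Hnf4a were called. Cdx1, a homeobox factor of intestinal identity, went from 33.8, 3.46, 7.26 and 8.45 to 89.8, 19.0, 22.8 and 18.4 (log2 change 1.53, SE 0.21, adjusted p 0.0299). Hnf4a, a nuclear receptor that drives enterocyte genes, rose more modestly, from 129, 57.1, 69.4 and 64.4 to 269, 90.5, 106 and 91.6 (0.70, adjusted p 0.0495). Id3, an inhibitor of helix-loop-helix factors and a BMP target, was the member with a lower mean, at 13.3, 28.6, 19.4 and 24.8 and then 10.7, 14.1, 9.51 and 11.1 (adjusted p 0.0828). Among the 9 epithelial identity genes Epcam joined Cdx1 with a call, and its day 5 values lay above its day 3 values in all cultures (522, 458, 601 and 554 against 907, 762, 1527 and 1398, log2 change 1.05, adjusted p 0.0251). When WT mouse 1 was left out, 16 of the 18 factors and 6 of the 9 identity genes were higher on day 5, and 0 of either list were among the 31 genes then called.

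Enzymes and pumps that handle foreign compounds gave 7 calls. Of 24 tested, 16 were higher and 8 lower on day 5 (median log2 change 0.52). Of the former 6 and of the latter 1 were called, beside 1.42% and 0.364% of all genes. Abcb1a, the drug efflux pump P-glycoprotein, went from 42.8, 8.36, 6.92 and 7.80 to 166, 41.6, 22.4 and 20.6 (log2 change 1.74, SE 0.18, adjusted p 0.0190). The sulfotransferase Sult1b1 rose by 1.97, the carboxylesterase Ces2c by 1.94, the cytochrome Cyp2s1 by 1.83, the glucuronosyltransferase Ugt2b34 by 1.07 and the glutathione transferase Gsto1 by 0.46 on the log2 scale. Aldh3a1, an aldehyde dehydrogenase known from stratified epithelia such as the cornea, fell by 2.01 on the log2 scale (9.07, 27.8, 6.66 and 14.0 against 1.68, 7.00, 2.02 and 0.967, adjusted p 0.0353). Without WT mouse 1, 14 of the 21 xenobiotic genes then tested were higher, and 0 of them were among the 31 genes then called.

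Crypt stem cell genes and Wnt targets did not move as a set. Of 16 tested, 9 were higher and 7 lower on day 5, the median log2 change was 0.16, and limma called 0, with 4 at an unadjusted p under 0.05. Over all genes, 52% had a higher mean on day 5 and 19.2% an unadjusted p under 0.05. Lgr5, the marker of the cycling crypt base stem cell, was at 15.7, 4.37, 6.33 and 4.42 on day 3 and at 19.7, 11.7, 15.6 and 20.0 on day 5, higher in each culture, with a log2 change of 1.17 (SE 0.27, adjusted p 0.0952). Axin2, a negative feedback target of Wnt signalling, was between 30.3 and 53.9 on day 3 and between 30.045 and 45.5 on day 5. Genes linked to regeneration and YAP were split, with 9 of 17 higher and 8 lower. Clu, which marks revival stem cells after injury, had the lowest adjusted p of all genes, 0.00722, and rose from 265, 1341, 1112 and 1066 to 593, 2930, 2344 and 2546 (log2 change 1.15, SE 0.07), by a nearly equal step in each culture. Spp1, the secreted phosphoprotein osteopontin, rose from 27.0, 41.7, 224 and 188 to 45.9, 117, 1104 and 673 (1.59, adjusted p 0.0373), with all Tnfr2-/- values above all WT values. Msln, a surface glycoprotein of repairing epithelium, fell from 536, 879, 1012 and 994 to 373, 685, 707 and 700 (log2 change -0.48, adjusted p 0.0355). Ly6a, the Sca-1 antigen of the regenerating colon, went from 2408, 2968, 3635 and 3386 to 1783, 3316, 4427 and 4024 (adjusted p 0.823), lower on day 5 in WT mouse 1 and higher in the other cultures. When WT mouse 1 was left out, 11 of the 17 regenerative genes were higher and 2 were called, both upwards.

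Keratins and envelope proteins, most of them of stratified epithelia, gave several of the larger called falls. Of 15 such genes tested, 10 were lower on day 5 and 6 were called, all downwards, against 10 lower and 1 called without WT mouse 1. Of all genes, 0.364% were called downwards. Krt90, a type II keratin (chromosome 15, 101552356 to 101562950), went from 37.1, 22.4, 33.5 and 27.7 to 0.821, 1.304, 5.71 and 3.57, with a mean 10.6 times lower on day 5 (log2 change -3.19, SE 0.34, adjusted p 0.0190). Cnfn, cornifelin of the cornified envelope, was between 6.2004 and 8.59 on day 3 and at 1.28, 0, 0 and 1.51 on day 5 (-2.45), and the hair keratin Krt27 moved from 9.81, 17.9, 21.8 and 26.9 to 1.89, 4.88, 5.29 and 1.45 (-2.24). Krt14, the basal keratin of squamous epithelium, started far higher, at 1107, 2432, 2264 and 2059, and fell to 565, 1768, 1137 and 1191 (-0.80, adjusted p 0.0268). Krt7, a keratin of simple epithelia, fell from 1933, 2597, 2867 and 2731 to 1285, 1812, 1983 and 1812 (-0.56, SE 0.06, adjusted p 0.0190). Tgm1, the transglutaminase that cross-links the envelope, fell by 1.06 on the log2 scale. The list did not fall throughout, since Ecm1 was at 29.3, 76.8, 89.7 and 89.8 and then at 36.1, 87.0, 160 and 160 (adjusted p 0.137), and Sprr1a was at 19.1, 48.7, 63.6 and 59.2 and then at 22.1, 27.6, 95.5 and 88.9 (adjusted p 0.797). Sprr2a2, of the same family as Sprr1a, had the highest value of all genes in every library of both days, and its step is not given here. The other genes among the 10 largest called falls were Aldh3a1, the natural killer receptor gene Klra4 (-1.57), the atrial myosin light chain Myl7 (-1.24), the mitochondrial carrier Slc25a48 (-1.18), the spindle protein Ckap2 (-1.16) and the processed pseudogenes Eif1-ps2 (-2.77) and Gm48348 (-1.35). Klra4 was between 4.75 and 8.82 on day 3 and between 0.611 and 3.88 on day 5, while Myl7 was between 16.9 and 57.1 and then between 8.17 and 26.2.

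Genes of mitosis and DNA replication were lower on day 5 in nearly all cases. All 32 mitosis genes tested had a lower mean, 25 of them in each of the 4 cultures, against 12.3% of all genes, and the median log2 change was -0.70. Top2a, Ube2c, Cdk1, Aurka and Cdc20 passed the test. Cdk1, the kinase that starts mitosis, went from 132, 125, 116 and 104 to 71.1, 68.7, 59.9 and 72.2, with the groups of libraries well apart (log2 change -0.80, SE 0.11, adjusted p 0.0313). Ube2c, the ubiquitin-conjugating enzyme of the anaphase-promoting complex, went from 117, 93.6, 130 and 111 to 73.4, 49.0, 49.4 and 56.5, a mean 1.98 times lower (-0.98, SE 0.14, adjusted p 0.0310). Mki67, the usual marker of cycling cells, had a log2 change of -0.56 and was not called. Of 33 DNA replication genes 32 were lower, 20 of them in each of the 4 cultures, with a median of -0.49. Rrm2, the regulated subunit of ribonucleotide reductase, was the called member, at 91.5, 110, 82.9 and 85.9 and then at 41.5, 54.8, 46.6 and 40.5 (log2 change -0.9997, SE 0.10, adjusted p 0.0190). Mcm5 of the replicative helicase (-0.85, adjusted p 0.0631) and Tk1, thymidine kinase (-0.94, adjusted p 0.0573), stayed just outside. Among 13 D cyclins and CDK inhibitors, 6 were higher and 7 lower. Ccnd1, the G1 cyclin induced by growth factors, fell from 356, 455, 461 and 437 to 205, 359, 247 and 243 (-0.72, adjusted p 0.0412), and Cdkn2b, an inhibitor of its kinase, was at 31.4, 49.5, 53.0 and 48.4 and then at 43.9, 71.4, 97.5 and 78.5 (adjusted p 0.0576). Without WT mouse 1 all 32 mitosis genes and all 33 replication genes were lower on day 5, as were 6 of the 13 D cyclins and CDK inhibitors, and 0 of them were among the 31 genes then called.

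The promoters of the called mitosis genes other than Top2a are shown. A cell cycle homology element (CHR, TTTGAA) and CCAAT boxes are textbook features of genes expressed in G2 and M phase. Below are the 150 bases before the annotated start (RefSeq, GRCm38.p6), 5′ to 3′ on the strand of the gene, with both motifs in capitals on either strand (TTCAAA and ATTGG when reversed).
Cdk1 (chr10:69352913-69353062, minus strand): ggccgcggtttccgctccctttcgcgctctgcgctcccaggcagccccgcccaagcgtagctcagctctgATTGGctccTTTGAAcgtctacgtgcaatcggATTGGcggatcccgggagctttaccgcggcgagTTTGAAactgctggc
Ube2c (chr2:164769779-164769928, plus strand): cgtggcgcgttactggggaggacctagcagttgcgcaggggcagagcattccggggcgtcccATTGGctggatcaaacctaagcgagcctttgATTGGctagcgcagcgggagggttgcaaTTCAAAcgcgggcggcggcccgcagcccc
Cdc20 (chr4:118437344-118437493, minus strand): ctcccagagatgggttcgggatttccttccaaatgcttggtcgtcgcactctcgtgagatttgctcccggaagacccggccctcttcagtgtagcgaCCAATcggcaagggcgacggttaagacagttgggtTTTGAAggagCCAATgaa
Aurka (chr2:172370571-172370720, minus strand): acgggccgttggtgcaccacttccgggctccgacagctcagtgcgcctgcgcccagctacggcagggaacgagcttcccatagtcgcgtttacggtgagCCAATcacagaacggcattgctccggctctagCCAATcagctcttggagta
Cdk1 holds 2 CHR elements, which begin 71 and 15 bases before the start, and 2 CCAAT boxes. Ube2c and Cdc20 hold 1 CHR element each, 29 and 18 bases before the start, and Aurka holds CCAAT boxes alone. Top2a, not printed here, holds a CHR element 23 bases before the start and CCAAT boxes. Over windows from 250 bases before to 50 after the start, 19 of the 25 mitosis genes with a window had a CHR element (76.0%) and 21 had a CCAAT box (84.0%), against 12.0% and 38.9% of 9960 tested genes and 18.1% and 37.9% of all 27025 genes with a window. Because a window was at hand for 78.1% of the mitosis genes and 73.9% of the tested genes, under the 80% set as the minimum, these shares are void as a comparison and are given as a description of the genes with a window only.

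Genes of growth metabolism were lower in the same libraries. All 22 ribosome biogenesis genes tested were lower on day 5 (median log2 change -0.35), and Nolc1, a nucleolar chaperone, was called (103, 99.5, 86.1 and 91.2 against 70.3, 70.8, 45.2 and 54.7, log2 change -0.67, adjusted p 0.0486). Npm1 and Ncl, the most abundant nucleolar proteins, changed by -0.36 and -0.34 without a call. All 15 nucleotide synthesis genes were lower as well (median -0.35), with 0 called and 7 at an unadjusted p under 0.05, beside 19.2% of all genes. Of 19 genes of serine and one-carbon metabolism and other ATF4 targets, 16 were lower (median -0.34), and Mthfd1, the folate enzyme, was called at 86.8, 56.1, 57.7 and 65.8 against 53.6, 40.6, 31.4 and 35.5 (-0.72, adjusted p 0.0466). Psat1, Slc7a5 and Phgdh, which make serine or import large amino acids, had log2 changes of -0.90, -0.71 and -0.60 and adjusted p-values of 0.0667, 0.0697 and 0.0909. In the fit without WT mouse 1, 21 of the 22 ribosome biogenesis genes, 14 of the 15 nucleotide genes and 15 of the 19 genes of the serine list were lower, and 0 of them were among the 31 genes then called.

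Energy and lipid metabolism showed no call in any of the 6 lists examined. Of 17 glycolysis genes 16 were higher on day 5, with a median log2 change of 0.23 and 6 at an unadjusted p under 0.05, beside 52% and 19.2% of all genes. Pfkfb3, which makes the activator of phosphofructokinase, was at 8.41, 13.8, 19.9 and 26.5 and then at 24.1, 18.7, 41.2 and 43.5 (log2 change 0.88, adjusted p 0.0807), and the lactate exporter Slc16a3 at 28.3, 43.7, 72.2 and 94.6 and then at 47.4, 52.4, 131 and 161 (0.65, adjusted p 0.0706). Of 24 genes of fatty acid oxidation and ketogenesis 20 were higher, with a small median of 0.13 and 8 at an unadjusted p under 0.05. Hadha of the mitochondrial trifunctional protein had a log2 change of 0.62 (adjusted p 0.0626), and Acsl5, which activates fatty acids in the gut, was lower in each culture, at 361, 279, 296 and 231 against 238, 154, 118 and 172 (-0.80, adjusted p 0.0642). The 12 TCA cycle genes had a median of -0.06 with 1 at an unadjusted p under 0.05, and the 23 respiratory chain genes a median of -0.02 with 2. Cholesterol synthesis was split, with 12 of 24 genes higher, a median of 0.00 and 4 at an unadjusted p under 0.05, and the 11 fatty acid synthesis genes had a median of 0.08 with 0.

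All 27 interferon-stimulated genes tested had a higher mean on day 5, with a median log2 change of 0.91. Type I interferons act through a transcription factor complex that contains IRF9 and binds the interferon-stimulated response element (ISRE). Ifi44, Irf9 and Oas1a passed the test. Oas1a, an oligoadenylate synthetase that senses double-stranded RNA, went from 42.9, 29.5, 28.8 and 28.7 to 60.7, 64.9, 75.7 and 70.8 (log2 change 1.06, SE 0.17, adjusted p 0.0422). Ifi44 rose from 8.46, 4.39, 6.46 and 14.3 to 19.0, 32.8, 54.3 and 53.6 (2.11, SE 0.31, adjusted p 0.0355), and Irf9, a subunit of that complex, from 28.2, 21.8, 28.2 and 28.3 to 45.0, 37.7, 46.2 and 49.5 (0.72, adjusted p 0.0388). The cultures did not share this step equally. The median over the 27 genes was 0.01 in WT mouse 1 but 1.45 in WT mouse 2, 1.21 in Tnfr2-/- mouse 1 and 1.61 in Tnfr2-/- mouse 2. WT mouse 1 already held the highest day 3 level of Isg15, a ubiquitin-like modifier, which went from 74.4, 15.7, 25.0 and 25.3 to 43.6, 78.4, 95.7 and 96.0, and was not called (adjusted p 0.216). Without WT mouse 1, 7 of the 27 genes were called, all upwards, although 31 genes were called in all.
The ISRE core (GAAANNGAA, on either strand) is shown in capitals, with overlapping matches merged, in the 150 bases before the start of 3 of these genes (RefSeq, GRCm38.p6, strand of the gene). They are the 3 with the lowest p among those that hold the core there, so each has it by choice, and the called genes Ifi44 and Irf9 had no match in that stretch of the window searched. Ifit1, an RNA-binding effector, went from 17.0, 4.39, 7.62 and 6.90 to 19.0, 24.6, 30.02 and 28.4 (log2 change 1.54, adjusted p 0.0903), and Bst2, the tetherin that holds budding virus at the cell surface, from 107, 59.6, 132 and 132 to 137, 218, 224 and 204 (0.90, adjusted p 0.126).
Oas1a (chr5:120907526-120907675, minus strand): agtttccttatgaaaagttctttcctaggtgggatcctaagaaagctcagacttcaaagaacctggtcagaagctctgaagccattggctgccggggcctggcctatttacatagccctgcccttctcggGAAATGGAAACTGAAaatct
Ifit1 (chr19:34640739-34640888, plus strand): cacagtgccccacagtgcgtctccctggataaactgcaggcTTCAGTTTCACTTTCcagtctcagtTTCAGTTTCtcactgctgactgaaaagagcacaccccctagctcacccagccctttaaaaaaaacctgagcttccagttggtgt
Bst2 (chr8:71537473-71537622, minus strand): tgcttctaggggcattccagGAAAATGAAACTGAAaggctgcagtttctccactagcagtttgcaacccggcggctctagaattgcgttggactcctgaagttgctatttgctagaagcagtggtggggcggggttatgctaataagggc
Oas1a holds 2 overlapping matches, which begin 20 and 14 bases before the start, Bst2 holds 2 that begin 130 and 124 bases before it, and Ifit1 holds 3. Of the 20 interferon-stimulated genes with a window from 250 bases before to 50 after the start, 11 held the core (55.0%), against 7.03% of the tested genes and 8.57% of all genes with a window. A window was at hand for 74.1% of the list, so this comparison is void too.

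The other days place this step in the course. The same limma fit called 99 genes from day 1 to day 2 (58 up, 41 down), 0 from day 2 to day 3 (1816 at an unadjusted p under 0.05) and 0 from day 5 to day 7 (1687). Neighbouring steps share libraries, so their values are given side by side. The steps also differ in length, with 1 day for those to day 2 and day 3 and 2 days for those to day 5 and day 7. The median of the goblet list changed by -0.39, 0.45, 1.54 and 0.40 over the 4 steps in order of day, that of the absorptive list by -0.33, 0.32, 1.41 and 0.07, and that of the mitosis list by 0.22, -0.41, -0.70 and -0.34. Lypd8 averaged 164, 37.9, 159, 1217 and 2671 on days 1, 2, 3, 5 and 7, and 101, 26.4, 70.1, 806.5 and 1308 without WT mouse 1. Muc2 averaged 114 on day 5 and 70.6 on day 7 over the 4 cultures but 20.7 and 34.3 without WT mouse 1. In WT mouse 1 itself it went from 396 to 179. Krt90 averaged 37.3, 51.8, 30.2, 2.85 and 0.677, Krt27 35.8, 47.7, 19.1, 3.38 and 1.91, and Aldh3a1 31.4, 37.2, 14.4, 2.92 and 2.84. Krt90, Krt27 and Aldh3a1 each had their highest mean on day 2.

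**Figure D3:**
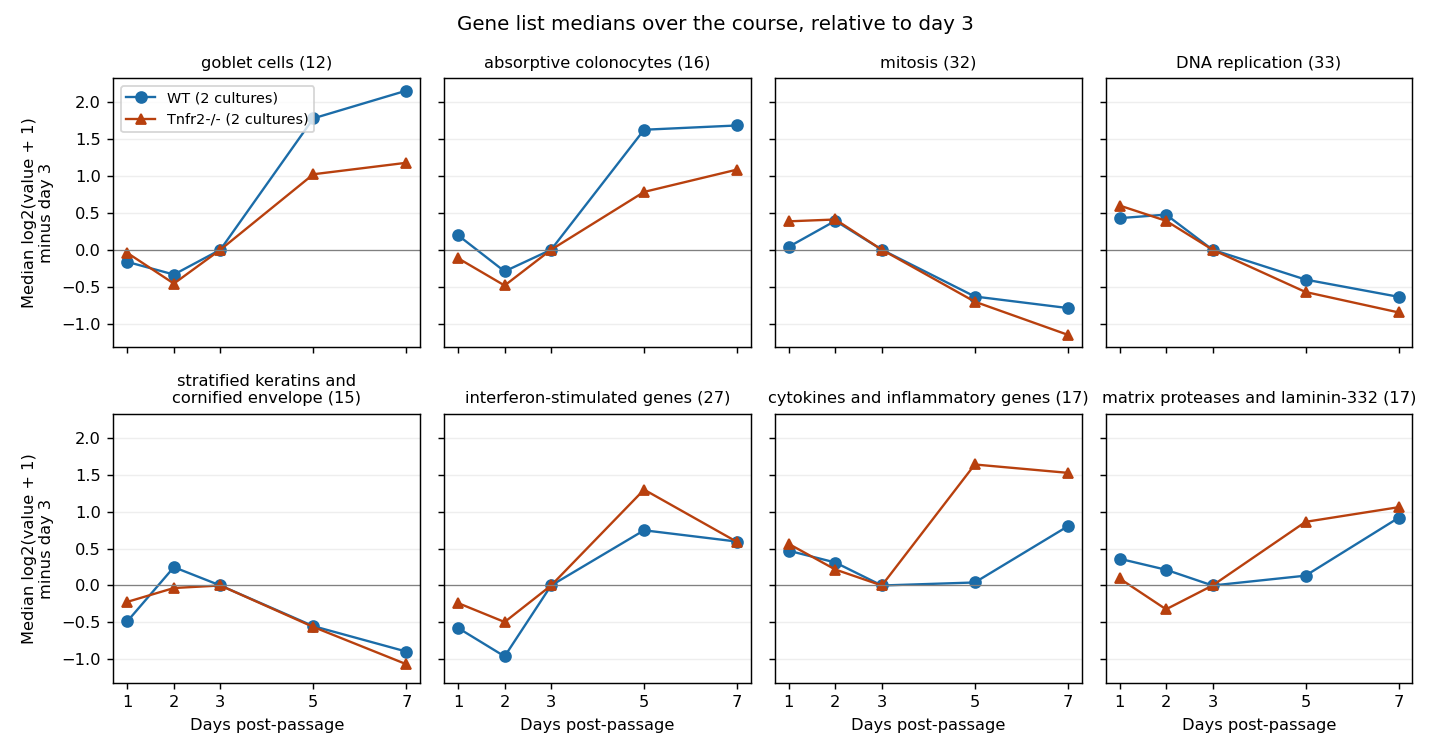
Median over list members of log2(value + 1) minus the day 3 level, by days post-passage, for WT and Tnfr2-/- cultures (mean of 2 cultures each, members tested in brackets). On day 5 the goblet median was 1.78 in WT and 1.02 in Tnfr2-/-, the mitosis median -0.63 and -0.70, and the median of cytokines and inflammatory genes 0.04 and 1.64.

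Where the genotypes part was examined as the Tnfr2-/- step minus the WT step. Within WT alone limma called 1 gene (0.00742%), Ctla2a, and within Tnfr2-/- alone 13 (0.0964%), all upwards. The 13 were Il11, Ptgs2, Igfbp5, Mmp10, Mmp13, Clu, Epcam, Ctla2a, Cbr2, Marcksl1, Mfsd4a, Rhob and the pseudogene Gm6395, and both counts were 0 when any of the 4 cultures was left out. A call in 1 genotype and not in the other is no difference between them, and the difference itself was called for 0 of 13480 genes (0%), with 1091 at an unadjusted p under 0.05 (8.09%). The lowest adjusted p was 0.0664, for Il11.

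Il11, an IL-6 family cytokine of injured mucosa (chromosome 7, 4772373 to 4782859), moved in opposite directions. It went from 21.6 to 6.24 in WT mouse 1, from 32.3 to 6.96 in WT mouse 2, from 46.6 to 454 in Tnfr2-/- mouse 1 and from 60.1 to 433 in Tnfr2-/- mouse 2. The steps differed by 4.89 on the log2 scale (SE 0.27, unadjusted p 4.92e-06). The difference passed an adjusted p of 0.05 with a pseudocount of 0.1 (0.0418), with a minimum mean of 5 (0.0438) and without pairing by mouse (0.0157), and did not pass in the other alternatives, where it reached 0.903 without Tnfr2-/- mouse 1. The gap did not last in both WT cultures, as Il11 stood at 438 in WT mouse 1, 37.1 in WT mouse 2, 239 in Tnfr2-/- mouse 1 and 343 in Tnfr2-/- mouse 2 on day 7. Ptgs2, the inducible cyclooxygenase that starts prostaglandin synthesis, went from 66.0, 182, 183 and 182 to 44.2, 108, 541 and 494 (difference 2.16, SE 0.17, unadjusted p 3.15e-05, adjusted p 0.103). Ereg, the EGF family ligand epiregulin, went from 59.9, 79.8, 165 and 164 to 32.2, 46.3, 436 and 390 (2.14, adjusted p 0.103). Igfbp5, a binding protein of insulin-like growth factors, went from 11.6, 27.8, 11.9 and 11.03 to 5.39, 14.3, 60.6 and 55.4 (3.19, adjusted p 0.103). All 4 of these genes were lower on day 5 in both WT cultures and higher in both Tnfr2-/- cultures. On day 7 Igfbp5 was at 85.5 and 34.85 in WT and at 28.3 and 38.6 in Tnfr2-/- cultures, so its gap did not last. For Ptgs2 and Ereg both Tnfr2-/- values lay above both WT values on day 7. For Il11 and Ereg both Tnfr2-/- values already lay above both WT values on day 3, whereas on day 2 Ereg was at 201 and 179 in WT and at 152 and 172 in Tnfr2-/- cultures.

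**Figure D4:**
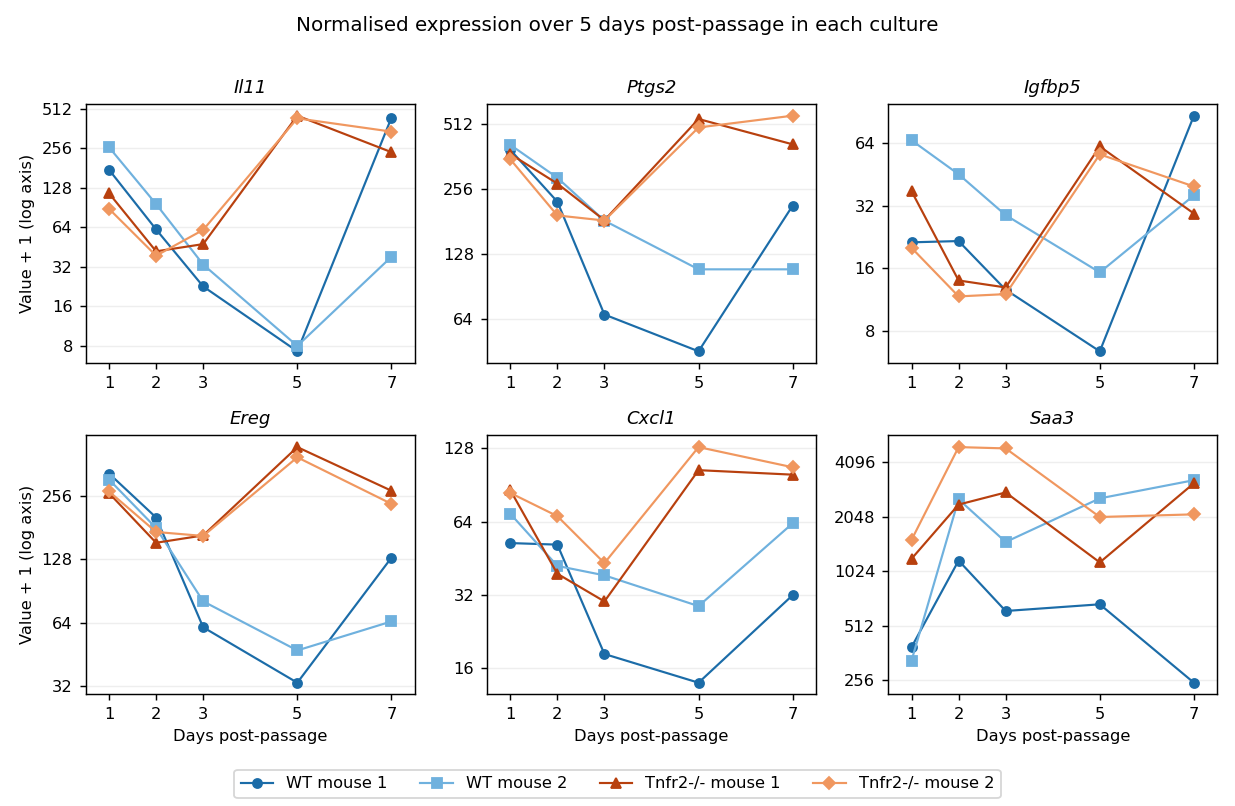
Normalised expression plus 1 on a log axis (base 2) by days post-passage for 6 genes, 1 line per culture. Il11, Ptgs2, Igfbp5, Ereg and Cxcl1 moved down in both WT cultures and up in both Tnfr2-/- cultures between day 3 and day 5, with Il11 on day 5 at 6.24 and 6.96 in WT and at 454 and 433 in Tnfr2-/- cultures, and Saa3 ran the other way.

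The wider list of cytokines and inflammatory genes includes genes that the naming rule picked for the difference, Ptgs2 and Saa3 among them. Its counts therefore repeat that choice in part and are no separate support. Its median step was 0.04 in WT and 1.64 in Tnfr2-/- cultures. Of 17 genes tested 15 had a larger step in Tnfr2-/-, and 13 had an unadjusted p under 0.05 for the difference, 11 of them towards Tnfr2-/-, beside 8.09% of all genes. Cxcl1, a neutrophil chemokine, went from 17.2, 37.4, 29.0 and 42.1 to 12.9, 27.7, 103 and 129 (difference 2.10, SE 0.22, unadjusted p 1.45e-04, adjusted p 0.229). Lif, a further IL-6 family cytokine, was between 34.4 and 45.6 in all day 3 libraries and at 36.8, 39.2, 141 and 135 on day 5 (1.64, adjusted p 0.327). Il6 was listed at 0 in the WT libraries of both days and went from 1.19 and 3.81 to 43.1 and 44.5 in Tnfr2-/- cultures, and Tnf from 6.12, 11.2, 11.5 and 10.4 to 7.10, 13.0, 34.2 and 28.3 (adjusted p of the difference 0.401 and 0.544). Nos2, the inducible nitric oxide synthase, was the member called for the step over all cultures, from 0.691, 1.496, 1.33 and 1.202 to 6.88, 7.07, 9.37 and 19.7 (log2 change 2.32, SE 0.30, adjusted p 0.0279). Saa3, an acute-phase protein, had the opposite sign, at 617, 1486, 2792 and 4891 and then 672, 2590, 1146 and 2043 (difference -1.73, SE 0.24, adjusted p 0.377). Regenerative and YAP-linked genes were split by genotype in the same way, with a median step of -0.27 in WT and 0.27 in Tnfr2-/- cultures. Of 17 tested, 14 had a larger step in Tnfr2-/-. An unadjusted p under 0.05 for the difference was seen for 6, all towards Tnfr2-/-, beside 8.09% of all genes. They include Spp1, Anxa1 and Ereg, itself picked above for its low p.

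Matrix proteases, their inhibitors and the chains of the basement membrane laminin of epithelia were mostly higher on day 5. Of 17 tested, 16 were higher on day 5 (median log2 change 0.60), and Mmp13, Mmp10, Mmp7 and Timp3 were among those called. Mmp13, a collagenase, went from 8.03, 10.3, 60.0 and 102 to 25.3, 43.1, 419.5 and 520.5 (2.16, SE 0.21, adjusted p 0.0190), and Mmp10, a stromelysin, from 231, 441, 917 and 1218 to 393, 750, 1899 and 2588 (0.92, SE 0.09, adjusted p 0.0190). Both rose in each culture, and the Tnfr2-/- values lay above the WT values on either day. Mmp7, matrilysin, rose by 1.36 on the log2 scale. The median step was 0.13 in WT and 0.86 in Tnfr2-/-. An unadjusted p under 0.05 for the difference was seen for 9 of the 17, all towards Tnfr2-/-, beside 8.09% of all genes. Mmp3, another stromelysin, was at 425, 662, 1029 and 1885 on day 3 and at 340, 776, 2817 and 4454 on day 5 (difference 1.39, adjusted p 0.385). Immediate early genes gave 1 call, Jun, a subunit of AP-1, which went from 23.6, 29.9, 36.4 and 32.5 to 50.2, 47.4, 82.8 and 73.9 (log2 change 1.01, adjusted p 0.0283). Their median step was 0.09 in WT and 0.63 in Tnfr2-/- cultures. Of the 14, 5 had an unadjusted p under 0.05 for the difference, beside 8.09% of all genes. In the fit without WT mouse 1, 2 of the 17 matrix genes and 0 of the cytokine and immediate early genes were among the 31 genes then called for the step.

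The marker lists of other cells are given beside these groups. The summed level of the 14 fibroblast genes went from 2941 to 2030 in WT mouse 1, from 5447 to 5253 in WT mouse 2, from 4224 to 5114 in Tnfr2-/- mouse 1 and from 6383 to 7488 in Tnfr2-/- mouse 2. The sum was thus lower on day 5 in both WT cultures and higher in both Tnfr2-/- cultures, as were Il11 and Ereg, although it is led by Col3a1 and moved little in WT mouse 2. The median step over the 14 genes was -0.27 in WT mouse 1, 0.11 in WT mouse 2, 0.12 in Tnfr2-/- mouse 1 and 0.22 in Tnfr2-/- mouse 2. Dcn, a matrix proteoglycan of fibroblasts, went from 244, 388, 774 and 1105 to 135, 297, 1493 and 1573 (difference 1.34, adjusted p 0.456), and Bgn, a related proteoglycan, was the list's called member of the step (log2 change 0.41, adjusted p 0.0453). The list as a whole was flat over all cultures, with 9 of 14 genes higher and a median of 0.06, and 12 of 14 higher with 0 among the 31 genes called without WT mouse 1. The haematopoietic genes summed to between 26.6 and 35.6 on day 3 and between 40.9 and 41.7 on day 5 in WT, and to between 48.7 and 57.4 and then between 70.1 and 94.8 in Tnfr2-/- cultures, with Cd14 the largest member and 0 of the 3 genes tested called (2 at an unadjusted p under 0.05). Of the endothelial genes Pecam1 and Vwf were tested and 0 were called, with 0 at an unadjusted p under 0.05, and 0 of the 6 neuronal and glial genes reached the minimum level. The part of these cells in the genotype differences was not tested.

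**Figure D5:**
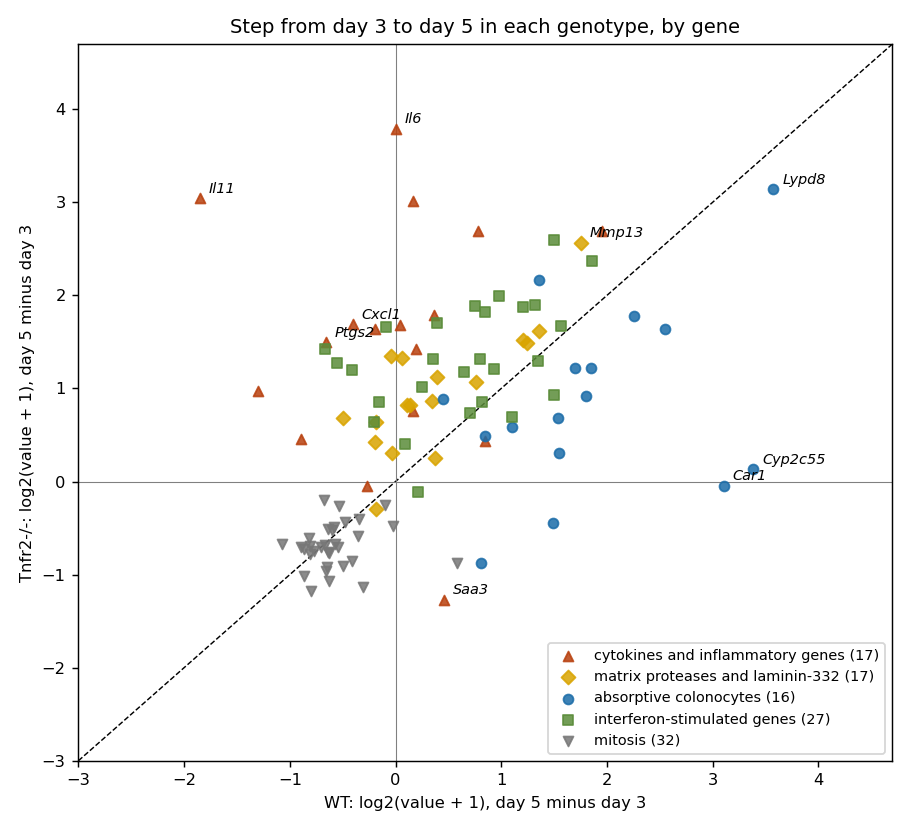
Change from day 3 to day 5 in log2(value + 1) for each gene of 5 lists, WT on the horizontal axis (mean of 2 cultures) and Tnfr2-/- on the vertical axis (mean of 2 cultures), with the dashed line marking equal steps. Most cytokine and matrix protease genes lie above the line, mitosis genes lie around it with medians of -0.63 and -0.70, and most absorptive genes lie below it with medians of 1.62 and 0.78.

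In signed terms, absorptive and xenobiotic genes had the larger steps in WT. Of all genes tested, 8.09% had an unadjusted p under 0.05 for the difference, the share to set beside each count here. The median step of absorptive genes was 1.62 in WT and 0.78 in Tnfr2-/- cultures, 14 of 16 had a larger step in WT, and 5 had an unadjusted p under 0.05 for the difference, all towards WT. Car1, Cyp2c55 and Mep1b were among them, with differences of -3.15, -3.25 and -1.94 and adjusted p-values of 0.573, 0.544 and 0.566. Cyp2c55, a cytochrome of the colonic surface, went from 58.4 to 260 in WT mouse 1 and from 0 to 23.7 in WT mouse 2, while the Tnfr2-/- cultures went from 2.09 to 1.43 and from 1.62 to 3.01. Xenobiotic genes had medians of 0.91 and 0.11, with culture medians of 1.25 and 0.55 for the WT mice and 0.14 and 0.29 for the Tnfr2-/- mice. Of the 24, 6 were at an unadjusted p under 0.05 for the difference, all towards WT. Gsta1 was foremost, although it fell in every culture and by more in Tnfr2-/- (199, 120, 148 and 173 against 183, 115, 66.1 and 77.7, difference -1.06, adjusted p 0.385). Differentiation factors had medians of 0.57 and 0.48, with 2 of 18 at an unadjusted p under 0.05 towards each genotype. The goblet medians were 1.78 and 1.02, with 0 of 12 genes at an unadjusted p under 0.05. The mitosis medians were -0.63 and -0.70, with 1 of 32 genes at an unadjusted p under 0.05. Interferon-stimulated genes had medians of 0.747 and 1.297, with 3 of 27 at that level, and the WT median averages cultures at 0.01 and 1.45. The remaining genes that the naming rule picked for the difference were pseudogenes with values of 0 in some libraries. Gm6395 was at 16.4, 19.1, 0 and 0 and then at 24.3, 43.9, 51.0 and 42.3, whereas Gm13123, Gm13611, Gm9392 and Gm7331 had differences between -6.20 and -3.81. Gm13123 lies on chromosome 4 (144247777 to 144248268), as does the targeted Tnfrsf1b (145213463 to 145246870). Any part of this position in its values was not tested.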

How the data were processed

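Messenger RNA was sequenced from WT and Tnfr2-/- colonoids as stranded single-end libraries. Per the submitters' processing notes, CASAVA, kallisto, sleuth and the mm10 build were used. The deposited file gives each transcript a signal, which is TPM rescaled with 1 size factor for each library. It also carries p-values, q-values, a test statistic and variance terms from the authors' own test, and none of these columns was used.

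Of 113974 lines, 781 repeats were dropped, and values were summed per gene symbol over 35240 symbols (431 of which join more than 1 gene identifier), leaving out 199 transcripts without a symbol (at most 0.0989% of a library). Genes with a mean of at least 1 over the 8 libraries, 13480 in all, were analysed as log2(value + 1), a pseudocount of 1 that understates changes of low genes. Linear models with a mean-variance trend were fitted in limma 3.58.1 (R 4.3.3) with culture as a term, which pairs the libraries of a mouse. The pairing comes from the labels, which number the mice within each genotype, and from the series design, which calls the replicates mice. That a number stays with 1 mouse over the days was read from these labels, and the deviations of same-numbered libraries correlated at 0.298 in WT but only 0.0407 in Tnfr2-/-. Steps within genotypes and their difference came from 1 fit with shared spread. P-values were Benjamini-Hochberg adjusted over all genes tested, and calls are adjusted p under 0.05. Steps between other days were fitted alike. The code was tested on simulated data. Read depth is not in the table, so no counting error is given, and values of a few units may rest on few reads.

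Named genes are the 10 largest called rises and falls shared by all 4 cultures, the 5 lowest p-values in each direction for the genotype difference, and members of 32 gene lists. Genes of other kinds are said to be so. The comparison, the lists and the rule were chosen with earlier results of these data known. Promoter sequences are RefSeq windows, matched by symbol for 9960 tested genes. Alternatives tried were another pseudocount, no or a stricter filter, no pairing, all 20 libraries in 1 fit, centred libraries, and leaving out each culture. Some list members are not reported here.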

Additional observations from a re-analysis of the deposited data

How the results depend on the processing

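The count of 240 genes for day 5 against day 3 was 219 with a pseudocount of 0.1, 286 with a minimum mean of 5 and 192 with libraries centred on their median, but 1 with no filter on low values and 612 (375 up, 237 down) with all 20 libraries in 1 fit, of which 196 were among the 240. Leaving out a culture gave between 0 and 31. For the step within WT (1 gene) the counts were 2 with a pseudocount of 0.1, 0 with no filter, 50 with all 20 libraries and 0 in every fit without a culture, and for Tnfr2-/- (13 genes) 0 with no filter, 41 with a minimum mean of 5, 150 with all 20 libraries and 0 without a culture. The genotype difference (0 genes) gave 2 with a pseudocount of 0.1 (Il11 and Gm6395) and 1 with a minimum mean of 5 (Il11). The step from day 1 to day 2 (99) gave 0 with no filter, 158 with a minimum mean of 5 and between 0 and 19 without a culture. From day 2 to day 3 (0) all 20 libraries gave 7, and from day 5 to day 7 (0) they gave 17, with between 0 and 1 without a culture. Fits with no filter add many genes near 0, and fits without a culture have fewer residual degrees of freedom.

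Pairing by mouse is a replicate block in the main fits. With no replicate block 39 genes were called for the step, 0 in WT, 2 in Tnfr2-/-, 1 for the genotype difference (Il11) and 2 from day 5 to day 7. Of the 63 called genes that are named or listed, 14 kept their call with no block, 56 with a pseudocount of 0.1, 57 with centred libraries, 54 with all 20 libraries and 0 with no filter. None of these 63 genes, nor of the genes named for the genotype difference, changed direction under any alternative. Other list members were followed only as counts, and some changed direction. Of 17 regenerative genes 9 were higher in the main fit and 11 without WT mouse 1. The medians of 6 lists, all close to 0 in the main fit, changed sign in at least 1 of the fits: regenerative and YAP-linked genes, D cyclins and CDK inhibitors, the TCA cycle, the respiratory chain, cholesterol synthesis and fibroblasts. Across all settings the step left the median of all genes between -0.0168 and 0.0249 on the log2 scale.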

Other observations

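Called genes outside the lists were looked through after their values were seen, so they are given as values with no test of a theme. Several encode proteins of mucosal defence. Duox2, an oxidase that makes hydrogen peroxide at the epithelial surface, went from 2.59, 0.485, 2.12 and 1.49 to 14.7, 6.11, 12.1 and 16.1 in WT mouse 1, WT mouse 2, Tnfr2-/- mouse 1 and Tnfr2-/- mouse 2 (log2 change 2.31, SE 0.22, limma adjusted p 0.0190). Noxo1, the organiser of another epithelial oxidase, rose by 0.72 on the log2 scale. Pigr, the receptor that carries immunoglobulin A into the lumen, went from 18.9, 0.553, 4.58 and 1.86 to 158, 14.1, 10.5 and 9.23 (2.29, adjusted p 0.0478). B2m, the light chain of MHC class I, went from 424, 691, 556 and 789 to 728, 1408, 1137 and 1099.5 (0.83, adjusted p 0.0283), and the heavy chains H2-D1 and H2-K1 rose by 0.59 and 0.41.

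Other called genes are commonly induced when oxygen is short. Bnip3, a mitophagy receptor, went from 31.9, 31.0, 56.7 and 76.6 to 153, 82.1, 186 and 224 (log2 change 1.71, SE 0.15, limma adjusted p 0.0190). Ndufa4l2, a mitochondrial protein, rose by 2.53, Ankrd37 by 1.94, Ero1l, an oxidase of protein folding, by 1.03 and Vegfa, the angiogenic factor, by 0.65 on the log2 scale. The iron exporter Slc40a1 and the ferroxidase Heph, which act together at the basal side of enterocytes, rose by 1.02 and 0.95. Among the falls, Srm, spermidine synthase, went from 110, 130, 108 and 86.2 to 62.8, 66.4, 55.5 and 61.9 (-0.79, adjusted p 0.0373), and the receptor tyrosine kinase Epha2 from 141, 182, 177 and 159 to 75.6, 110, 86.7 and 102 (-0.82, adjusted p 0.0260). No explanation was tested for either group.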
